A study of Homo sapiens with 24 samples.

Results

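The libraries compared here were the 6 of THP-1 macrophages that had received both DCVC and LPS (DCVC_LPS) and the 6 of macrophages left untreated (Control). These are the 12 columns of the normalized count table whose titles carry those group names, out of 24 libraries in 4 groups of 6. THP-1 is an established human monocytic leukaemia line, and all cells, the untreated ones too, had first been turned into macrophage-like cells with 100 nM of the phorbol ester PMA for 24 h. DCVC_LPS cells then received 5 µM S-(1,2-dichlorovinyl)-L-cysteine (DCVC, a cysteine conjugate formed from the solvent trichloroethylene) for 24 h, and, after the medium was changed, 100 ng/mL lipopolysaccharide (LPS, a component of the gram-negative bacterial membrane) for 4 h. Control cells received medium only. LPS cells received only the LPS step and DCVC cells only the DCVC step, and they are used below to show where the state after both treatments differed from either treatment alone. All libraries come from 1 cell line, so p-values measure the spread between libraries of that line, which may be technical. The genes described were the 13900 of 38735 named genes with a mean of at least 10 normalized counts over the 24 libraries. This mean spans all 4 groups, so a gene low in both compared groups could enter through LPS or DCVC libraries. A gene that entered through LPS libraries would be lower in DCVC_LPS than in LPS by that filter. List counts against LPS may therefore be partly set by it.

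LPS is passed by CD14 to the receptor TLR4, which signals through MyD88 and TICAM1 to NF-kB and to interferon regulatory factors. NF-kB turns on cytokines and chemokines and also its own inhibitors, while the interferon arm turns on interferon beta and, through its receptor, the interferon-stimulated genes. DCVC is cleaved by cysteine conjugate beta-lyases to reactive products that bind protein and glutathione, and such electrophiles free the factor NRF2 from its inhibitor KEAP1, so that it turns on genes of glutathione and thioredoxin metabolism.

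The 12 libraries held between 19675823 and 27986524 reads in named genes. Normalized totals were 21135400 ± 563705 (mean ± SD, n = 6) in Control and 21831300 ± 235113 in DCVC_LPS, while the share of reads in mitochondrial genes was 1.66 ± 0.20% in Control and 1.92 ± 0.21% in DCVC_LPS. Of 18 macrophage and monocyte markers 17 were tested, and the summed level of all 18 ran from 151200 to 177200 in Control and from 114600 to 133300 in DCVC_LPS. Among DCVC_LPS libraries replicate F stood apart: it was the highest of the 6 in 41 of 42 tested interferon genes, with a median of 1.44 log2 units above its group's mean, and results that rest on it are given with and without it. Untreated libraries were not more even. Over all genes tested, the root mean square deviation from the group's mean was 0.425 log2 units in Control F. It was 0.408 in Control B and 0.347 in DCVC_LPS F. In both groups libraries A and B, and C and D, were closer to each other than to the rest. The chi-square of their reads per gene, which is near 1 for sampling noise alone, was 3.56 for A with B and 3.94 for C with D in DCVC_LPS and 16.2 to 50.9 for every other pair. In Control it was 9.01, 3.15 and, for E with F, 14.1, against 26.5 to 121 for the others. The labels do not say what the letters mark, and p-values over 6 libraries treat them as independent.

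After both treatments the macrophages held much more RNA for chemokines, cytokines and NF-kB regulators, and much more for NRF2 targets, than untreated cells. They held much less for the LPS co-receptor CD14, for the RNA receptor TLR8, for receptors of scavenging and apoptotic-cell uptake, and for DNA replication. In limma, 5173 genes (37.2% of those tested) were higher and 5157 (37.1%) lower in DCVC_LPS than in Control at an adjusted p under 0.05, together 74.3%. Each list count below is to be read beside these shares of all genes. At least 2-fold differences were more often decreases, with 1615 genes (11.6%) higher and 2613 (18.8%) lower. At 4-fold these counts were 599 and 1017, and at 16-fold they were 141 each. For 4235 genes (30.5%) the 95% interval of the change lay within 1.5-fold of no change. In 7505 genes (54%) the 6 values of one group did not overlap the 6 of the other. Within the letter pairs, fitted alone, 4807 genes were higher and 4913 lower in A and B, 5139 and 5045 in C and D, and 4322 and 4591 in E and F. With the pairs A and B, C and D, and E and F each averaged to 1 value per group, 4450 were higher and 4476 lower, all of them among the genes called over the 6 libraries. Without DCVC_LPS F the shared calls were 5034 higher and 5005 lower. In bulk RNA, fewer cells holding a transcript and less of it per cell cannot be told apart.

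**Figure D1:**
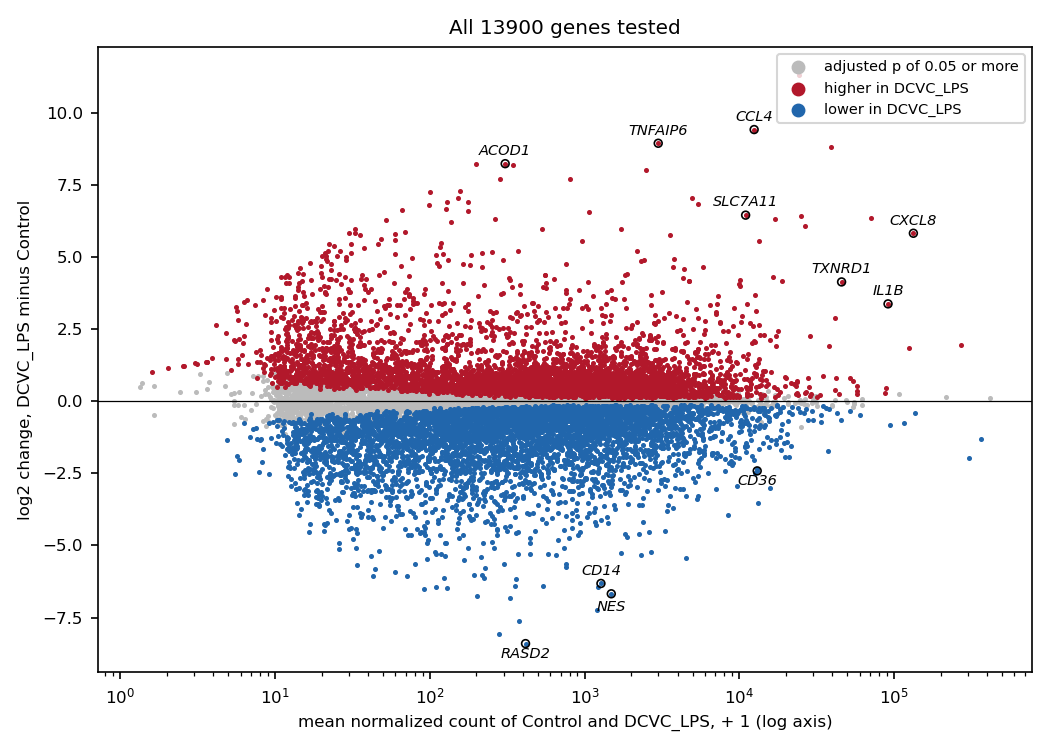
Each point is 1 of 13900 genes: the horizontal axis gives the mean normalized count of Control and DCVC_LPS plus 1 on a log axis, the vertical axis the log2 change of DCVC_LPS minus Control. Red points were higher (5173), blue points lower (5157) and grey points were not called. Circled genes are named in the text. CCL4 and TNFAIP6 lie near the top, RASD2 and CD14 near the bottom.

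Promoters are shown for 5 genes that rose strongly and hold a motif of the factor named with their list, the NRF2 targets GCLM and TXNRD1 and the NF-kB-regulated genes CXCL2, NFKBIA and TNFAIP3. Each runs from 250 bases before to 50 bases after the RefSeq gene start on GRCh38.p14, read 5′ to 3′ on the gene's strand. Capitals mark matches, on either strand, to the core of the antioxidant response element bound by NRF2 (TGACNNNGC) and to a kappaB sequence bound by NF-kB (GGG, then NN, then TTTCC). The first motif occurs in 13.3% and the second in 1.91% of all 35116 promoters of that table. The 2 motifs share no overlapping letters in the promoters shown.
GCLM, chr1:93909381-93909680, minus strand: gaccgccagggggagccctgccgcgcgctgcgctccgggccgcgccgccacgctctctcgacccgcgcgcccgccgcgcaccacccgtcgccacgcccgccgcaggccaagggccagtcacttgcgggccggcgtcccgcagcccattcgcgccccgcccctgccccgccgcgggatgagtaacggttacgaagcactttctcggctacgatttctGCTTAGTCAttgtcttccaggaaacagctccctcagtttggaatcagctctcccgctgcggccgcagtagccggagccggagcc
TXNRD1, chr12:104215529-104215828, plus strand: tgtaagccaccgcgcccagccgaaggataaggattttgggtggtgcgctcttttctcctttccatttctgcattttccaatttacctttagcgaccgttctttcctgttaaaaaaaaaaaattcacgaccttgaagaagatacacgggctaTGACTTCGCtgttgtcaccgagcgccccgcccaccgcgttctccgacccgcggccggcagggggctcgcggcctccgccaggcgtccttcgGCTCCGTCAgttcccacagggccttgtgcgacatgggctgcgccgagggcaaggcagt
CXCL2, chr4:74099146-74099445, minus strand: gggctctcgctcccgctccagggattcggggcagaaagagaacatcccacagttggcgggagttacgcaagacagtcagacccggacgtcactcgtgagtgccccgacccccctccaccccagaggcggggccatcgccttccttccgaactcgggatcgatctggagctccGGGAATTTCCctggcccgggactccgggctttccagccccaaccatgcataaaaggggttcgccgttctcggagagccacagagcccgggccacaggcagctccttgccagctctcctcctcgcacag
NFKBIA, chr14:35404700-35404999, minus strand: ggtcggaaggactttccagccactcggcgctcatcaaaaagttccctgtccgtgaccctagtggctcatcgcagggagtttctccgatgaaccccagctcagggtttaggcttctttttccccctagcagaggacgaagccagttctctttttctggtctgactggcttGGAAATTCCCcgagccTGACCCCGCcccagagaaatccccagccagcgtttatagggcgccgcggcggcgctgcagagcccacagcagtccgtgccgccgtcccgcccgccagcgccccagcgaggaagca
TNFAIP3, chr6:137867009-137867308, plus strand: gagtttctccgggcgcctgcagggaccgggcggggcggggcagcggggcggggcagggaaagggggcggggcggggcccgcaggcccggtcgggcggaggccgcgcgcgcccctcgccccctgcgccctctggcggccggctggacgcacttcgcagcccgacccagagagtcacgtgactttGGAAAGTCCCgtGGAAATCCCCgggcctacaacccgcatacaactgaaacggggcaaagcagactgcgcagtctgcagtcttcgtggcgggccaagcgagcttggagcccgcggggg
GCLM held 1 antioxidant response element core, 34 bases before its start, and TXNRD1 held 2, at 99 and 8 bases before. CXCL2 held 1 kappaB match, 78 bases before its start, and TNFAIP3 held 2, at 67 and 55 bases before. NFKBIA held a kappaB match 81 bases before its start and an antioxidant response element core 65 bases before. Of the NRF2 target list, 23 genes were found in the promoter table and 6 of them (26.1%) held the antioxidant response element core. The kappaB match was in 7 of 21 (33.3%) promoters of the NF-kB list and in 6 of 16 (37.5%) of the chemokine list. The antioxidant core was not particular to the NRF2 list: 8 of the other 27 lists with at least 10 promoters held it more often, up to 42.1% of the lysosome list. A match is a description of these letters and not a binding site.

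Of 24 NF-kB subunits, inhibitors and regulators, 22 were higher and 1 lower in DCVC_LPS than in Control, against 37.2% higher and 37.1% lower over all genes, and their median log2 change was 2.83 against 0.01 over all genes. NFKBIA ran from 567 to 1821 in Control (median 1093) and from 16630 to 20940 in DCVC_LPS (median 19060). NFKBIA encodes IkB-alpha, which holds NF-kB in the cytoplasm, and its 6 treated libraries all lay above all 6 untreated ones. The change was 4.20 ± 0.24 (limma log2 change ± SE, adjusted p = 7.35e-14). TNFAIP3 ran from 763 to 1582 in Control (median 1075) and from 11600 to 15130 in DCVC_LPS (median 13700), again with no overlap, and rose by 3.64 ± 0.15 (adjusted p = 1.05e-16). TNFAIP3 encodes A20, a ubiquitin-editing enzyme that ends NF-kB signalling. TRAF1, an adaptor of TNF receptors, rose from 419 ± 86.8 to 33440 ± 4245 (mean ± SD, n = 6 each), and TNIP1, an A20 partner, rose from 1842 ± 218 to 23350 ± 1553. The single decrease was IKBKE, a kinase of the interferon arm, at 2188 ± 117 in Control and 1065 ± 160 in DCVC_LPS (-1.05 ± 0.10, adjusted p = 1.68e-09). Against LPS alone, 19 of the 24 genes were lower in DCVC_LPS and 1 higher, beside 39.4% lower and 33.3% higher over all genes. NFKBIA was -0.90 ± 0.24 from its LPS level and TNFAIP3 -1.76 ± 0.15 (adjusted p = 0.00187 and 1.56e-10).

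Among 28 tested cytokines, 21 were higher and 4 lower, with a median log2 change of 2.91. TNF ran from 98.6 to 518 in Control (median 257) and from 6437 to 8439 in DCVC_LPS (median 7097). TNF is the first cytokine macrophages release on LPS, and the lowest treated library lay far above the highest untreated one. It rose by 4.92 ± 0.35 (limma adjusted p = 3.92e-12), to 7278 ± 848, which was -3.46 ± 0.35 from its LPS mean of 85840 ± 31750 (adjusted p = 3.52e-09). IL1B, the precursor of interleukin-1 beta, ran from 5906 to 21530 in Control (median 19340) and from 150500 to 191200 in DCVC_LPS (median 159100). It did not overlap between the groups and rose by 3.38 ± 0.27 (adjusted p = 3.00e-11), while its LPS mean was 519200 ± 88590. The untreated library F was the lowest of its group in IL1B, at 5906.

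Some cytokines were almost unread in untreated cells. IL6, the acute-phase cytokine, had 2 reads in all of Control and 270 in all of DCVC_LPS, a ratio of 135 with a 95% counting interval from 36.9 to 1118. Its normalized count ran from 26.7 to 84.5 in DCVC_LPS (median 33.0), and the highest library was F. In LPS it averaged 2504 ± 571. CSF2, which encodes the growth factor GM-CSF, had 1 read against 175 (ratio 175, interval 30.9 to 6937). IL12B, a subunit of interleukins 12 and 23, had 1 against 64 (ratio 63.9, interval 11.1 to 2562), and its treated mean was 9.40 with library F and 6.16 without it. The anti-inflammatory cytokine IL10 had no read in Control and 4 in DCVC_LPS, too few to show a rise, and was not called (limma adjusted p = 0.212). Its highest treated value, 3.22, was in library B, and its LPS mean was 63.0 ± 16.7. These intervals cover counting error only. IL12B and IL10 averaged under 10 in both compared groups, so they entered the test and the list counts only through libraries outside this comparison. TNFSF14, the cytokine LIGHT, fell from 1442 ± 188 to 217 ± 54.3 (-2.75 ± 0.18, adjusted p = 1.24e-12), and VEGFA, the vascular growth factor, fell from 1101 ± 368 to 337 ± 112.

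Of 20 tested chemokines, 15 were higher and 0 lower in limma at an adjusted p under 0.05, with a median log2 change of 3.35. The count of lower ones was also 0 at an unadjusted p under 0.05, in edgeR and in DESeq2. CCL4, CCL4L2, CCL3L3 and CXCL2 were among the 12 largest rises of all genes. CCL4 and its near-identical copy CCL4L2 recruit monocytes and T cells, and the authors' counting may have split reads between them. CCL4L2 ran from 2.08 to 64.9 in Control (median 23.5) and from 42760 to 72420 in DCVC_LPS (median 44070). CCL4 itself ran from 7.24 to 196 in Control (median 28.3) and from 20270 to 36540 in DCVC_LPS (median 22880), and the groups of both genes were far apart. Control CCL4 fell into letter pairs, at 177 and 196 in A and B, 24.6 and 32.0 in C and D, and 7.29 and 7.24 in E and F, while the DCVC_LPS values of C and D, 21990 and 20270, were close to those of A and B. The change therefore differed between the pairs, at 6.93 in A and B, 9.50 in C and D and 11.83 in E and F, beside 9.42 ± 0.58 over all letters (adjusted p = 2.82e-13). CCL3L3, a copy of CCL3, rose from 226 ± 144 to 77690 ± 14650, and CCL3 rose from 731 ± 524 to 49440 ± 7064. Of CCL3's exon bases, 74.6% are shared with AC243829.4 on the other strand, and the strand setting is not given.

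CXCL8, the neutrophil attractant interleukin-8, ran from 1144 to 10390 in Control (median 8088) and from 217400 to 304800 in DCVC_LPS (median 258900). The untreated libraries E and F, at 1144 and 1147, lay well below the other 4, and all 6 treated libraries lay above every untreated one. The change was 5.83 ± 0.50 (limma adjusted p = 1.31e-10), or 4.86 in letters A and B and 7.67 in E and F. CXCL2, whose promoter is shown above, ran from 6.25 to 43.5 in Control (median 20.6) and from 4739 to 5056 in DCVC_LPS (median 5001), a range of treated values narrower than that of the untreated ones on a log scale, and rose by 8.03 ± 0.38 (adjusted p = 1.61e-15). CCL20, the attractant of CCR6-bearing lymphocytes, rose from 593 ± 266 to 26100 ± 7348 (5.56 ± 0.31), and CCL22, an attractant of regulatory T cells, rose from 25.3 ± 5.78 to 224 ± 87.4. Against LPS alone, 17 of the 20 chemokines were lower in DCVC_LPS and 0 higher in limma, beside 39.4% and 33.3% of all genes. The count of higher ones was also 0 at an unadjusted p under 0.05. Of the 20 chemokines, 2 had no read in at least 1 of the compared groups. The count of lower ones may thus be partly set by the filter, which includes LPS libraries.

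CCL2, the monocyte attractant MCP-1, was 1 of the 5 chemokines not called. CCL2 ran from 8.33 to 46.1 in Control (median 19.5) and from 6.13 to 37.4 in DCVC_LPS (median 19.1), and the groups overlapped almost wholly. Its change of -0.16 ± 0.38 (adjusted p = 0.709) had a 95% interval from -0.95 to 0.62 on the log2 scale, so neither a moderate decrease nor a 1.5-fold rise was outside it. Within letters C and D alone it was lower, at -0.70 (adjusted p = 0.0235). The LPS mean was 1649 ± 403, from which DCVC_LPS differed by -6.50 ± 0.38 on the log2 scale (adjusted p = 2.39e-13). In the DCVC group it averaged 7.37 ± 2.63, from which DCVC_LPS was higher by 1.14 ± 0.38 (adjusted p = 0.0116).

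**Figure D2:**
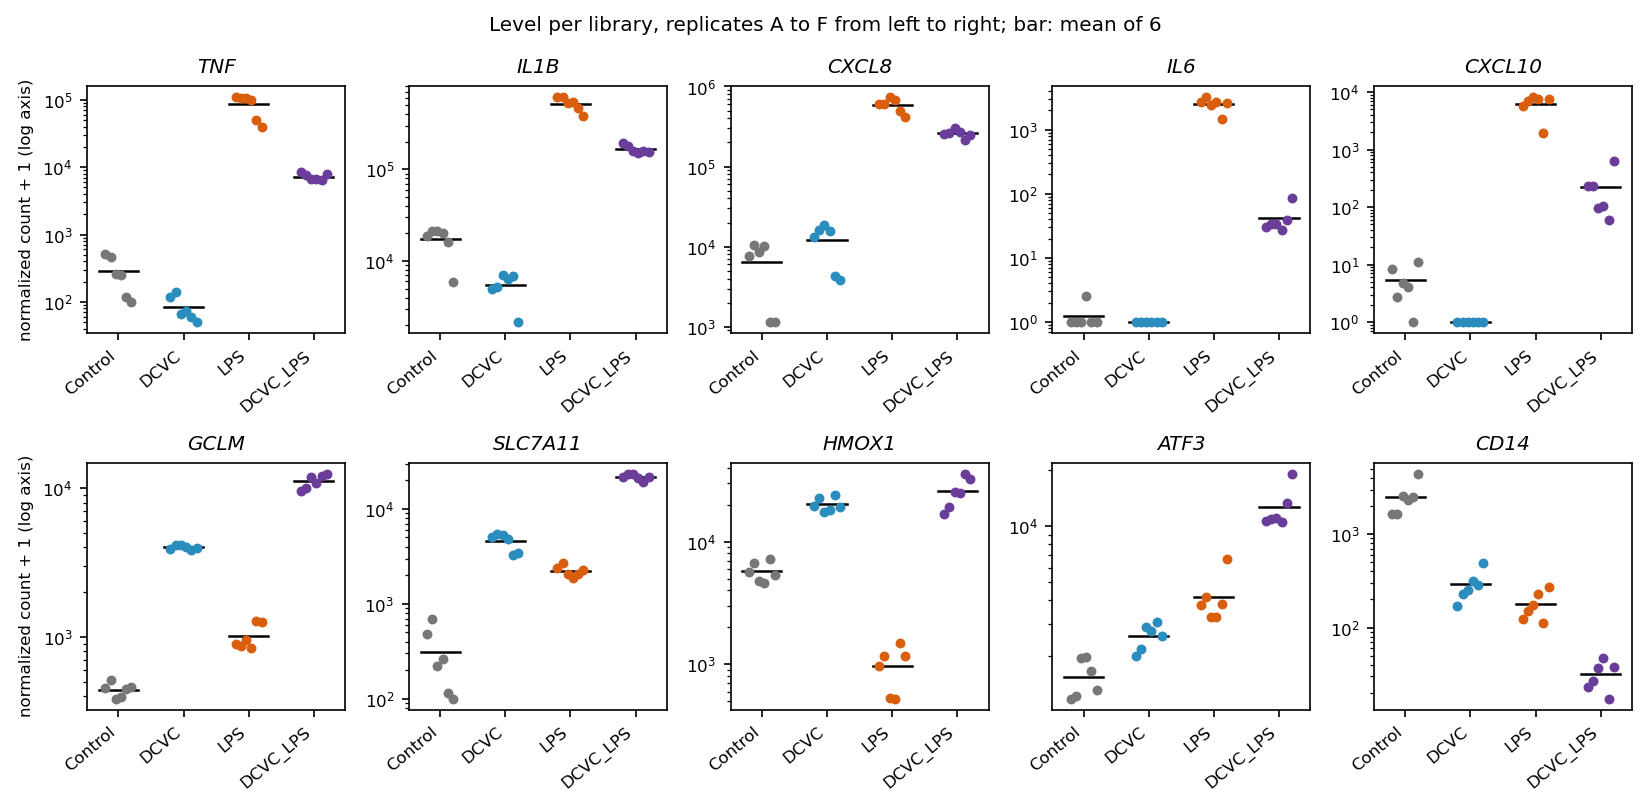
Normalized count plus 1 in each of the 24 libraries, on log axes that differ between panels, for 10 genes; points run from replicate A on the left to F on the right, and bars are means of 6. DCVC_LPS lay above Control and below LPS for TNF, IL1B, CXCL8, IL6 and CXCL10, above all other groups for GCLM, SLC7A11 and ATF3, and below all for CD14.

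Interferon-stimulated genes were higher as a group but depended in size on 1 library. Of 42 tested genes 34 were higher and 3 lower, with a median log2 change of 1.47, and without DCVC_LPS F the counts were 31 and 4 and the median 1.18. CXCL10, a chemokine induced by interferon, ran from 0 to 9.95 in Control (median 3.42) and from 58.2 to 635 in DCVC_LPS (median 167), and its treated mean fell from 226 to 145 when library F was left out. IDO1, the interferon-induced enzyme that breaks down tryptophan, had no read in any Control library and 874 in DCVC_LPS, at least 291-fold higher against the limit of 3 reads over the group. The treated libraries ran from 61.3 to 391, with F the highest, and the mean was 130 with F and 77.4 without. GBP5, an interferon-induced guanylate-binding GTPase, rose from 231 ± 40.1 to 2336 ± 1137 (3.25 ± 0.18, adjusted p = 2.50e-14). The interferon-induced GTPase GBP1 went the other way, 521 ± 131 in Control and 288 ± 192 in DCVC_LPS (-1.0 ± 0.27, limma adjusted p = 0.00179). So did USP18, the enzyme that removes ISG15 (-0.91 ± 0.33, limma adjusted p = 0.0147). In both genes library F, at 672 and 504, lay above every Control value, so the groups overlapped. Without F the treated GBP1 mean was 211 and the change -1.28. The treated USP18 mean was 181 with F and 116 without it, and the USP18 call was lost in edgeR (adjusted p = 0.13). Of the 42 genes, 41 were lower than in LPS, beside 39.4% of all genes, and 39 were higher than in DCVC alone, beside 29.9%. Of these genes, 2 had no read in at least 1 of the compared groups. The count against LPS may thus be partly set by the filter, which includes LPS libraries.

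**Figure D3:**
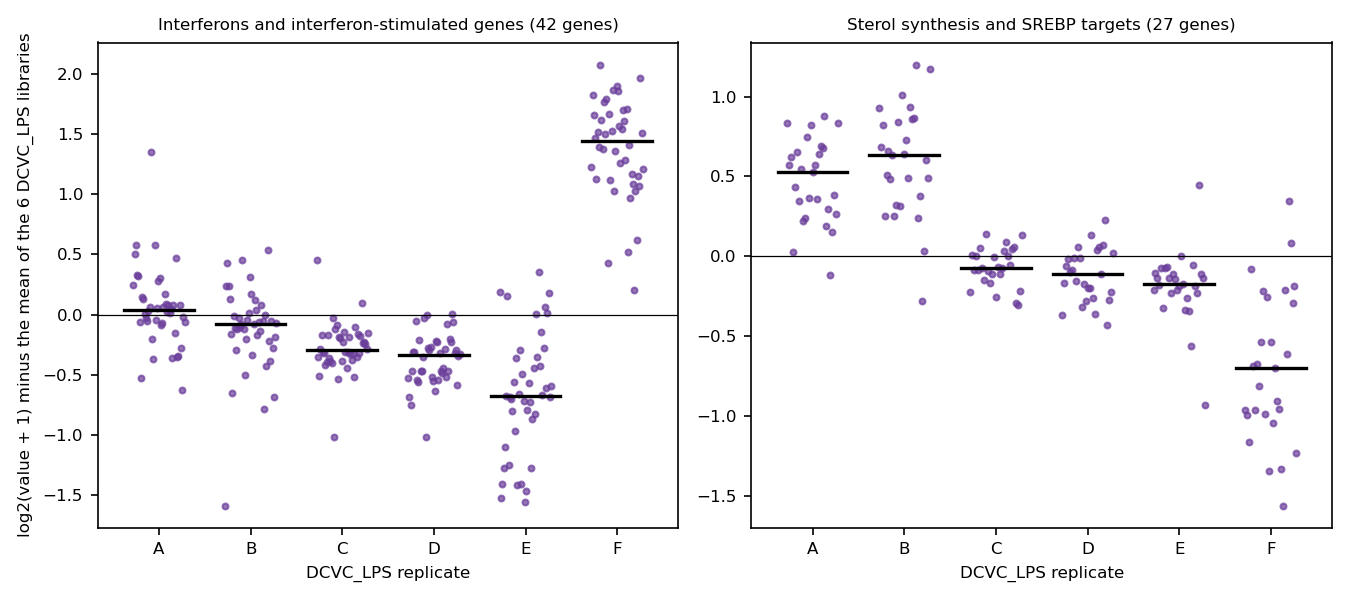
Each point is 1 gene in 1 DCVC_LPS library, as log2(value + 1) minus the mean of the 6 DCVC_LPS libraries, with bars at the median. On the left, the 42 interferon genes lie at a median of 1.44 in F and -0.67 in E; on the right, the 27 sterol synthesis genes lie at 0.53 in A and 0.64 in B and at -0.70 in F.

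Feedback and anti-inflammatory regulators were higher in 16 and lower in 3 of 21 tested genes, with a median of 1.33. SOCS3, which blocks cytokine receptor kinases, ran from 7.29 to 25.6 in Control (median 16.8) and from 740 to 1460 in DCVC_LPS (median 1042) and did not overlap, and it rose by 5.97 ± 0.23 (limma adjusted p = 4.21e-17). ACOD1, the enzyme that makes itaconate, ran from 0 to 1.89 in Control (median 0.978) and from 445 to 1020 in DCVC_LPS (median 540), with library F the highest, and rose by 8.24 ± 0.26 (adjusted p = 8.55e-19). Both remained below their LPS means of 10140 ± 1540 and 3711 ± 892. CD274, the checkpoint ligand PD-L1, rose from 5.46 ± 0.892 to 517 ± 53.2, and IL1RN, the interleukin-1 receptor antagonist, rose less, from 2459 ± 672 to 3563 ± 138 (0.59 ± 0.16, adjusted p = 0.00246). NFIL3, a transcription factor, fell from 1569 ± 266 to 901 ± 112.

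Of 19 costimulation and maturation genes 14 were higher and 3 lower, with a median of 1.82. CD80 ran from 0 to 3.42 in Control (median 2.05) and from 417 to 926 in DCVC_LPS (median 502), so the groups did not overlap, and CD80, the ligand of CD28 on T cells, rose by 7.70 ± 0.33 (adjusted p = 2.39e-16). LAMP3, a lysosomal protein of mature dendritic cells, ran from 0 to 5.12 in Control (median 0.906) and from 416 to 1509 in DCVC_LPS (median 573), and its treated mean was 685 with library F and 520 without it. CD83 rose from 502 ± 127 to 8980 ± 1401. CCR7, the receptor that guides cells to lymph nodes, rose from 1.09 ± 1.53 to 54.6 ± 27.6, beside an LPS mean of 2759 ± 1064. All 4 were lower in DCVC_LPS than in LPS, as were 18 of the 19, beside 39.4% of all genes. VCAM1, an adhesion molecule, was at 9.34 ± 8.47 in Control and 2.51 ± 2.62 in DCVC_LPS with overlapping groups, and its treated mean was 1.47 without library F. The VCAM1 call (adjusted p = 0.027) was lost with any of 6 single libraries left out and turned direction in letters E and F. With both compared means under 10, VCAM1 entered the test only through libraries outside this comparison, its LPS mean being 850.

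The other genes among the 12 largest rises by the fixed rule were of mixed function. TNFAIP6, a hyaluronan-binding protein, ran from 1.81 to 35.9 in Control (median 11.9) and from 4755 to 7043 in DCVC_LPS (median 6139) and rose by 8.95 ± 0.39 (limma adjusted p = 2.82e-16), to a level that was not shown to differ from LPS (-0.06 ± 0.39, adjusted p = 0.886). IL18RAP, a chain of the interleukin-18 receptor, had 2 reads over Control and 1345 over DCVC_LPS (ratio 671, interval 185 to 5548). TNIP3, an NF-kB inhibitor, rose from 1.16 ± 0.904 to 310 ± 38.6. MGAT4C, a glycosyltransferase, rose from 8.52 ± 5.97 to 1592 ± 447, beside 1264 ± 404 in LPS. The antisense transcript ADORA2A-AS1 had 3 reads against 2625 (ratio 873, interval 298 to 4237) and was higher than in LPS by 1.56 ± 0.24 (adjusted p = 2.87e-06), but reads of an antisense gene cannot be assigned without the strand setting, which is not given in the sources used here.

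NRF2 targets were mostly higher than in untreated cells and than in LPS-treated cells. Of 33 tested genes 29 were higher and 1 lower than in Control, with a median log2 change of 2.00. Against LPS alone 30 were higher, beside 33.3% of all genes, and against DCVC alone 21 were higher and 1 lower, beside 29.9% and 32.2% of all genes. SLC7A11, the cystine transporter that feeds glutathione synthesis, ran from 99.5 to 697 in Control (median 240) and from 19070 to 23420 in DCVC_LPS (median 21660). No treated library came near an untreated one, and the change was 6.45 ± 0.31 (limma adjusted p = 2.18e-15). Its means of 2222 ± 293 in LPS and 4548 ± 954 in DCVC were both below that of DCVC_LPS, by 3.29 ± 0.31 and 2.28 ± 0.31 log2 units (adjusted p = 1.05e-09 and 6.84e-07). GCLM, the modifier subunit of the rate-limiting glutathione enzyme, whose promoter holds the motif shown above, ran from 384 to 516 in Control (median 449) and from 9587 to 12490 in DCVC_LPS (median 11330). It rose by 4.65 ± 0.10 (adjusted p = 4.56e-22) and was higher than in LPS by 3.47 ± 0.10 and than in DCVC by 1.47 ± 0.10. TXNRD1, thioredoxin reductase, ran from 3959 to 5949 in Control (median 4983) and from 85000 to 91300 in DCVC_LPS (median 85880) and rose by 4.14 ± 0.09 (adjusted p = 4.56e-22), with means of 17780 ± 1515 in LPS and 27010 ± 2878 in DCVC.

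SRXN1, sulfiredoxin, rose from 118 ± 46.5 to 1989 ± 153 (4.15 ± 0.17, adjusted p = 7.69e-17), but 85.0% of its exon bases lie on the same strand in another annotated gene, AL121758.1, so its reads could have been split. GSR, glutathione reductase, rose from 2635 ± 432 to 14300 ± 1264, above both single treatments. HMOX1 and NQO1 were not shown to differ from DCVC alone. HMOX1, haem oxygenase, ran from 4587 to 7268 in Control (median 5464) and from 16890 to 35660 in DCVC_LPS (median 25050) and rose by 2.14 ± 0.22 (limma adjusted p = 3.15e-09), and differed from DCVC by 0.32 ± 0.22 (adjusted p = 0.207). In LPS it averaged 978 ± 385, 4.78 log2 units below DCVC_LPS. NQO1, a quinone reductase, ran from 2467 to 3961 in Control (median 2539) and from 8277 to 9456 in DCVC_LPS (median 9103), with a difference from DCVC of 0.02 ± 0.13 (adjusted p = 0.894) that was well within the spread of the libraries. BLVRB, biliverdin reductase, fell from 1084 ± 158 to 593 ± 76.9. The largest change of the list, 6.91, was in NMRAL2P, a pseudogene named here after its value was seen.

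**Figure D4:**
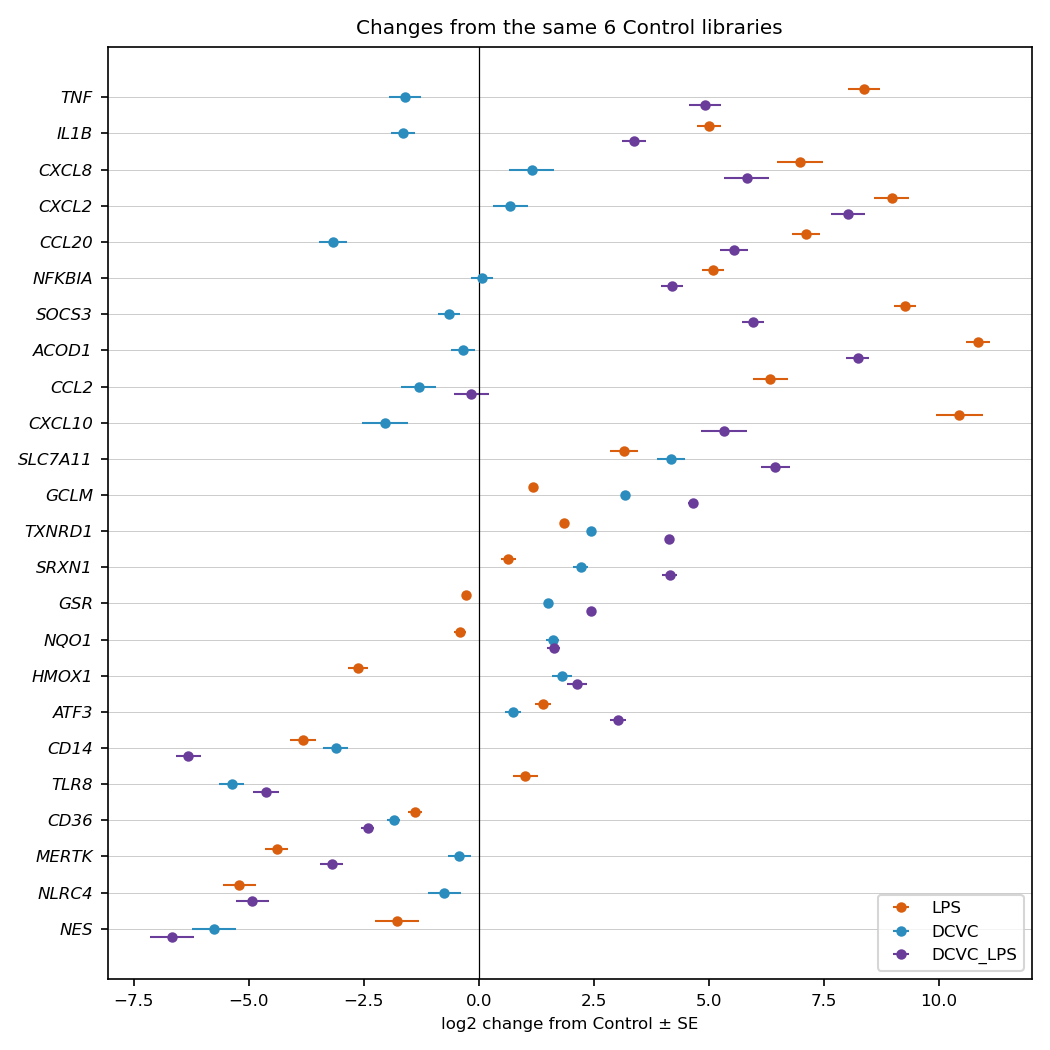
Log2 change from Control ± SE, from the same fit, for 24 genes in LPS (orange), DCVC (blue) and DCVC_LPS (purple). All 3 changes share the same Control libraries, so the points of a gene are not independent. SLC7A11, GCLM, TXNRD1, SRXN1, GSR and ATF3 lie furthest right in DCVC_LPS, while TNF, IL1B and CXCL10 lie furthest right in LPS.

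Genes of glutathione and cysteine conjugate handling were mixed, with 13 higher and 10 lower of 31, beside 37.2% and 37.1% of all genes. Their median was 0.09, close to the 0.01 over all genes. GSTM3, a glutathione transferase, rose from 93.2 ± 24.5 to 753 ± 89.8 (3.03 ± 0.16, adjusted p = 1.81e-14), whereas GPX1, a glutathione peroxidase, fell from 29800 ± 5456 to 11170 ± 958 and CBS, which condenses serine with homocysteine, fell from 102 ± 8.47 to 23.1 ± 4.74. The beta-lyases KYAT1 and KYAT3, which can cleave DCVC, were not called. KYAT1 was at 27.1 ± 3.41 in Control and 31.7 ± 6.74 in DCVC_LPS, with a 95% interval from -0.20 to 0.61, and KYAT3 at 412 ± 62.1 in Control and 381 ± 50 in DCVC_LPS, with an interval from -0.33 to 0.11 (adjusted p = 0.355 and 0.351). Of KYAT3's exon bases, 20.3% are shared with RBMXL1.

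Targets of ATF4 and the integrated stress response moved both ways, 12 higher and 12 lower of 29, beside 37.2% and 37.1% of all genes. Their median was 0.05. ATF3, a stress-induced repressor, ran from 1185 to 1990 in Control (median 1496) and from 10550 to 19180 in DCVC_LPS (median 11020), with library F the highest. It rose by 3.02 ± 0.17 (limma adjusted p = 7.35e-14) and exceeded both LPS, at 4160 ± 1277, and DCVC, at 2567 ± 400, by 1.61 ± 0.17 and 2.28 ± 0.17 (adjusted p = 1.12e-08 and 3.49e-11). DDIT4, an inhibitor of mTORC1, rose from 121 ± 26.8 to 1012 ± 81.8, and SLC3A2, the partner chain of SLC7A11, rose from 4820 ± 113 to 12660 ± 916. Of DDIT4's exon bases, 41.2% are shared with DDIT4-AS1 on the other strand, and the strand setting is not given. GDF15, a stress-induced hormone, fell from 8262 ± 4266 to 757 ± 65.0 (-3.30 ± 0.23), VLDLR, a lipoprotein receptor, fell from 424 ± 92.2 to 98.6 ± 16.5, and TRIB3, a pseudokinase target of ATF4, fell from 551 ± 72.3 to 302 ± 56.2. Of 23 genes of the unfolded protein response, 10 were higher and 5 lower, beside the same shares of all genes. DNAJB9, a chaperone of the endoplasmic reticulum, rose from 522 ± 85.8 to 1675 ± 174, and HERPUD1, which serves degradation from that compartment, fell from 1518 ± 132 to 546 ± 37.2.

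Heat shock proteins were higher in 12 and lower in 5 of 23 genes, beside 37.2% and 37.1% of all genes. DNAJB4 rose from 151 ± 21.0 to 639 ± 66.9 and lay above both LPS (2.29 ± 0.12) and DCVC (1.05 ± 0.12), whereas HSPB1, a small heat shock protein, fell from 2673 ± 669 to 638 ± 177. Of 26 p53 targets and DNA damage genes 11 were higher and 5 lower, beside the same shares of all genes. With all libraries scaled to equal totals, 11 were higher and 8 lower. BTG2, an antiproliferative factor, rose from 4950 ± 585 to 20460 ± 1829 (2.05 ± 0.08, adjusted p = 2.48e-17), and AEN, an apoptosis-linked nuclease, rose from 934 ± 73.6 to 2747 ± 311. CDKN1A, the cell cycle inhibitor p21, rose by 0.80 ± 0.10 (adjusted p = 1.95e-07). PHLDA3, an inhibitor of AKT, fell from 1003 ± 173 to 57.9 ± 8.48 (-4.08 ± 0.17, adjusted p = 2.03e-16), and SESN1, a sestrin, fell from 3857 ± 1036 to 476 ± 26.4. Apoptosis regulators were split, with 9 higher and 7 lower of 19, beside the same shares of all genes. CFLAR, which blocks caspase-8, rose from 1277 ± 246 to 6956 ± 971, and APAF1, the apoptosome scaffold, fell from 1325 ± 318 to 430 ± 36.9.

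Of 24 immediate early genes 17 were higher and 4 lower, with a median of 1.49. IER5 rose from 1270 ± 271 to 6695 ± 374 (2.42 ± 0.11, limma adjusted p = 9.63e-16). FOS fell from 1336 ± 164 to 440 ± 97.9, and KLF4, a transcription factor, fell from 1739 ± 433 to 188 ± 44.6 (-3.20 ± 0.19, adjusted p = 9.22e-14).

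Of 27 TLR receptors, co-receptors and proximal signalling genes 6 were higher and 16 lower, with a median log2 change of -0.47. CD14, which hands LPS to TLR4, ran from 1639 to 4443 in Control (median 2426) and from 16.3 to 45.9 in DCVC_LPS (median 30.9). The lowest untreated library lay far above the highest treated one, and the change was -6.32 ± 0.28 (limma adjusted p = 3.61e-16). It averaged 176 ± 62.0 in LPS and 289 ± 109 in DCVC, and DCVC_LPS was lower than either, by -2.50 ± 0.28 and -3.21 ± 0.28 log2 units (adjusted p = 1.60e-08 and 3.03e-10). TLR8, a receptor of single-stranded RNA, ran from 89.6 to 219 in Control (median 128) and from 1.67 to 8.6 in DCVC_LPS (median 4.38) and fell by 4.63 ± 0.28 on the log2 scale (adjusted p = 1.54e-13), with 2.23 ± 0.456 in DCVC and 278 ± 89.5 in LPS. TLR4 fell less, from 2121 ± 332 to 1095 ± 294 (-0.97 ± 0.14), with overlapping groups, and differed from its DCVC level by -0.06 ± 0.14 (adjusted p = 0.708). Downstream, the kinase IRAK2 rose from 291 ± 82.4 to 7137 ± 334 and the adaptor TICAM1 rose from 719 ± 75.1 to 2492 ± 247, while TAB1, a partner of the kinase TAK1, fell from 1285 ± 81.0 to 534 ± 30.3.

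Inflammasome and pyroptosis genes were lower in 12 and higher in 3 of 19, with a median of -0.71. NLRC4, the sensor of flagellin, ran from 357 to 475 in Control (median 451) and from 7.53 to 26.5 in DCVC_LPS (median 14.2), and fell by 4.92 ± 0.36 on the log2 scale (adjusted p = 6.40e-12). PYCARD, the adaptor ASC, fell from 1758 ± 308 to 270 ± 56.1. Of PYCARD's exon bases, 59.7% are shared with PYCARD-AS1 on the other strand, and the strand setting is not given. NLRC4 and PYCARD were not shown to differ from LPS (limma adjusted p = 0.481 and 0.0635). NLRP3 fell from 3136 ± 287 to 2243 ± 400 (-0.50 ± 0.10) with overlapping groups, beside an LPS mean of 9356 ± 1007, and its call was lost in letters E and F (-0.15, adjusted p = 0.313). CASP5, an intracellular LPS sensor, rose from 24.9 ± 10.2 to 419 ± 187, and P2RX7, the ATP-gated channel, rose from 120 ± 40.6 to 720 ± 229.

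Genes of uptake and clearance were mostly lower. Of 18 scavenger receptors 12 were lower and 3 higher, with a median of -1.17, and of 20 efferocytosis and phagocytosis genes 14 were lower and 2 higher, with a median of -1.14. CD36, a receptor for oxidised lipoproteins and apoptotic cells, ran from 15390 to 27710 in Control (median 21930) and from 3136 to 5439 in DCVC_LPS (median 4168) and fell by 2.42 ± 0.15 on the log2 scale (limma adjusted p = 2.28e-13). It was lower than in LPS (8381 ± 1467) and in DCVC (6021 ± 836). MERTK, the receptor kinase that binds apoptotic cells through GAS6, ran from 1923 to 4709 in Control (median 3194) and from 227 to 469 in DCVC_LPS (median 382) and fell by 3.20 ± 0.25 (adjusted p = 2.91e-11), but stood above its LPS level of 156 ± 55.2 (adjusted p = 1.62e-04). Its ligand GAS6 fell from 1260 ± 147 to 526 ± 46.4, the integrin chain ITGB5 fell from 20300 ± 2357 to 6467 ± 729, and the lectin CD209 fell from 1466 ± 343 to 213 ± 43.8. OLR1, the receptor LOX-1, rose from 1036 ± 596 to 4147 ± 1400 (2.12 ± 0.34, adjusted p = 4.66e-06). CD68 was counted at only 5.28 ± 2.67 in Control and 25.5 ± 5.48 in DCVC_LPS, with 81.7% of its exon bases shared with other annotated genes on the same strand, so its level is uncertain.

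In lipid handling, 10 of 16 LXR targets and related genes were lower and 4 higher, with a median of -0.69. LPL, lipoprotein lipase, ran from 18140 to 35790 in Control (median 27280) and from 2032 to 5340 in DCVC_LPS (median 3640) and fell by 3.0 ± 0.23 (limma adjusted p = 2.43e-11), while ABCA1, the cholesterol exporter, rose from 579 ± 209 to 3455 ± 887. Sterol synthesis genes were higher in 10 and lower in 4 of 27, beside 37.2% and 37.1% of all genes. With the letters as a replicate block, 15 were higher and 6 lower. SQLE, squalene epoxidase, rose from 16570 ± 5716 to 59940 ± 11170 (1.92 ± 0.23, adjusted p = 5.61e-08), and EBP, a sterol isomerase, fell from 624 ± 63.4 to 277 ± 77.0. HMGCS1, the synthase ahead of the rate-limiting step, ran from 1115 to 2547 in Control (median 1769) and from 2246 to 8335 in DCVC_LPS (median 3766), with overlapping groups (1.26 ± 0.31, adjusted p = 6.81e-04). The list varied between libraries in both groups: its median deviation was 0.53 and 0.64 in DCVC_LPS A and B and -0.70 in F, and 0.25, 0.41 and -0.65 in the untreated libraries of the same letters.

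Prostaglandin and leukotriene genes fell in 10 and rose in 3 of 16, with a median of -0.80. PTGS2, the inducible cyclooxygenase, ran from 73.5 to 124 in Control (median 96.3) and from 1033 to 1871 in DCVC_LPS (median 1438) and rose by 3.85 ± 0.28 (limma adjusted p = 6.80e-12), beside 10090 ± 5871 in LPS. PTGER4, a receptor of prostaglandin E2, rose from 1945 ± 446 to 12990 ± 1592. ALOX5, 5-lipoxygenase, ran from 400 to 710 in Control (median 502) and from 7.53 to 42.6 in DCVC_LPS (median 20.7) and fell by 4.64 ± 0.29 (adjusted p = 4.39e-13), and the leukotriene receptor CYSLTR1 fell from 2922 ± 773 to 223 ± 74.6. Of 31 genes of proteases, matrix and adhesion 18 were lower and 3 higher. ITGA4, an integrin chain, fell from 3844 ± 838 to 658 ± 55.2, and TIMP2, an inhibitor of metalloproteinases, fell from 3966 ± 554 to 1444 ± 130.

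**Figure D5:**
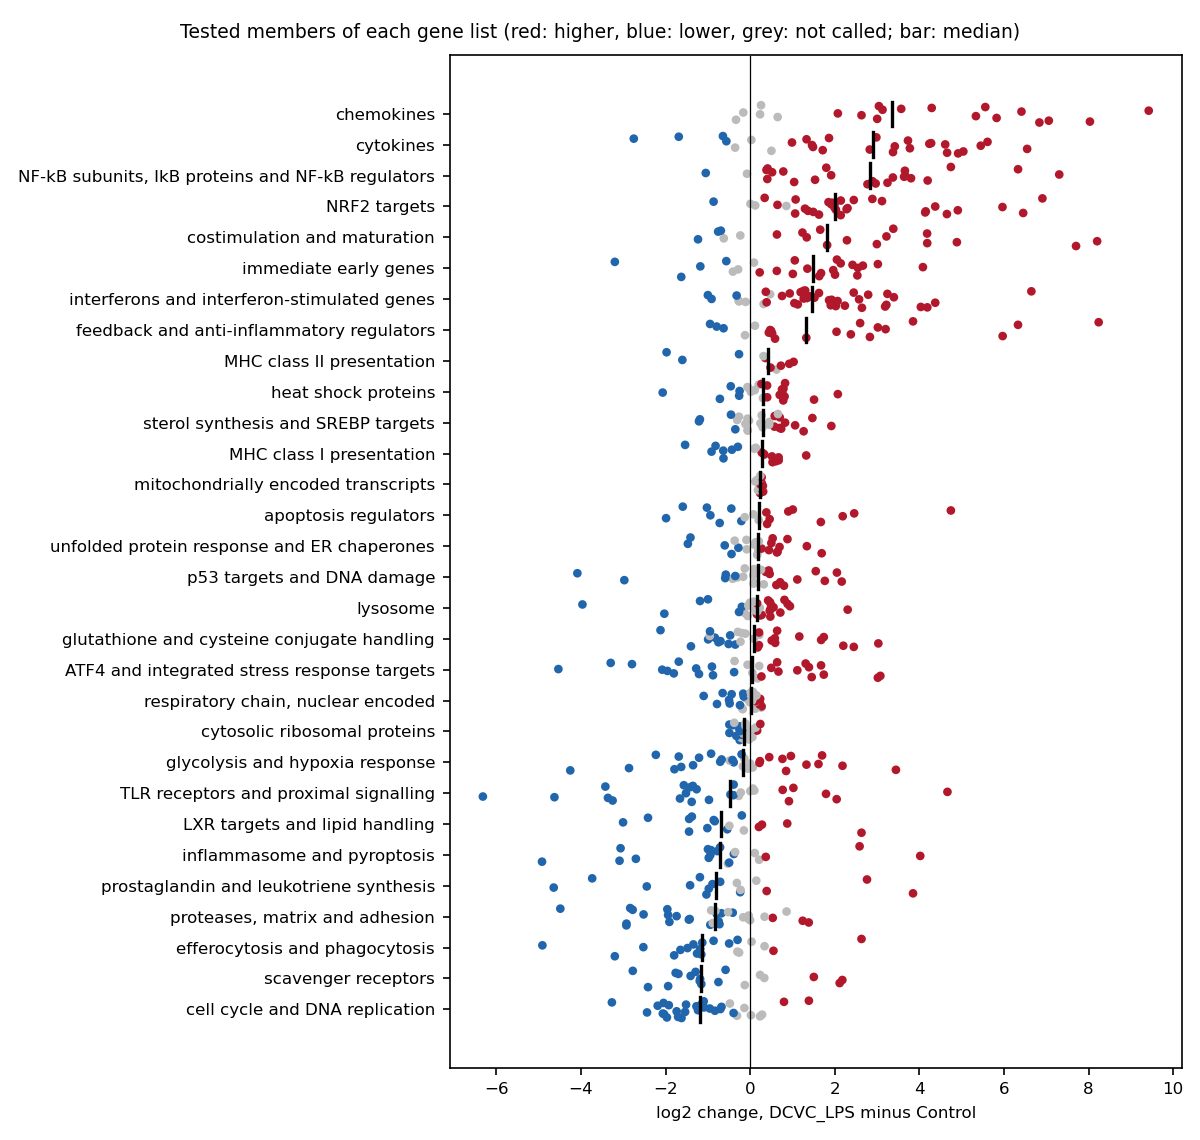
Each row is a gene list and each point a tested member, with the log2 change of DCVC_LPS minus Control on the horizontal axis; red members were higher, blue lower and grey not called, and bars are medians. Chemokines, cytokines, NF-kB genes and NRF2 targets have the highest medians (3.35, 2.91, 2.83 and 2.00), and cell cycle genes have one of the lowest (-1.18).

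Cell cycle and DNA replication genes were lower in 24 and higher in 2 of 32, with a median of -1.18. The untreated level was uneven. Control F was the highest of the 6 untreated libraries in 29 of the 32 genes, with a median of 0.842 log2 units above its group's mean. AURKA, a mitotic kinase, fell from 502 ± 43.2 to 132 ± 13.8 (-1.92 ± 0.15, limma adjusted p = 3.10e-11), and MCM4, a subunit of the replicative helicase, fell from 1700 ± 536 to 707 ± 69.9. The 2 that rose, CDKN1A and CDKN2C, encode inhibitors of cyclin-dependent kinases, and CDKN2C went from 1421 ± 553 to 3536 ± 275. AURKA stood above its LPS level of 64.5 ± 22.4 (adjusted p = 7.55e-07) and below its DCVC level of 439 ± 43.5 (adjusted p = 4.61e-10).

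Glycolysis and hypoxia genes were split, with 11 higher and 14 lower of 31, beside 37.2% and 37.1% of all genes. HIF1A rose from 2500 ± 295 to 8135 ± 1071 (1.70 ± 0.09), the hexose transporter SLC2A6 rose from 816 ± 339 to 8381 ± 747, hexokinase HK1 fell from 2168 ± 292 to 624 ± 56.4, and the glucose transporter SLC2A3 fell from 467 ± 82.2 to 24.8 ± 9.69 (-4.25 ± 0.24, limma adjusted p = 4.70e-14). Lysosome genes were higher in 16 and lower in 6 of 31, beside the same shares of all genes. Their changes were small: the median was 0.17 and 15 had an interval within 1.5-fold. GLA, alpha-galactosidase, rose from 806 ± 101 to 3962 ± 130 and exceeded both LPS and DCVC, while CTSH, cathepsin H, fell from 8858 ± 2023 to 2132 ± 276 and the proton pump subunit ATP6V0D2 fell from 337 ± 88.8 to 21.4 ± 8.86. MHC class I genes were higher in 10 and lower in 7 of 19, beside the same shares of all genes. TAP1, the peptide transporter, rose from 2674 ± 324 to 6838 ± 1861, and NLRC5, the class I transactivator, fell from 1171 ± 93.0 to 413 ± 121.

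Housekeeping lists stayed near their untreated level. All 13 mitochondrially encoded transcripts, 26 of 30 cytosolic ribosomal protein genes and 26 of 31 nuclear genes of the respiratory chain had an interval within 1.5-fold, against 30.5% of all genes. Of the mitochondrial transcripts 7 were higher, or 2 with equal totals and 2 without DCVC_LPS F, 2 without Control D, 3 without Control C or DCVC_LPS E 12 with the replicate block and 1 with letter pairs averaged. Of the ribosomal protein genes 11 were lower and 2 higher, or 14 and 1 with equal totals 21 and 3 with the block and 2 and 0 with letter pairs averaged, and without single libraries the lower ones numbered 7 (Control C, E or F, or DCVC_LPS B) to 17 (Control A). MT-ND5 was at 23740 ± 1702 in Control and 29330 ± 3261 in DCVC_LPS (0.30 ± 0.08), and RPS18 at 39350 ± 5907 in Control and 27880 ± 3237 in DCVC_LPS (-0.49 ± 0.11). COX5B, a cytochrome oxidase subunit, was an exception and fell from 3743 ± 842 to 1726 ± 223 (-1.10 ± 0.13, limma adjusted p = 2.29e-08).

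The 12 largest falls were in genes outside these lists. RASD2, a small GTPase, ran from 227 to 1777 in Control (median 669) and from 0 to 5.97 in DCVC_LPS (median 0.874), with 2 treated libraries at 0, and fell by 8.40 ± 0.73 on the log2 scale (limma adjusted p = 1.95e-10). Its treated mean was 1.46 with library F and 0.554 without it. NES, the intermediate filament nestin, ran from 1984 to 3634 in Control (median 3206) and from 9.68 to 86.2 in DCVC_LPS (median 31.6) and fell by 6.68 ± 0.48 (adjusted p = 5.31e-12). It was at 72.6 ± 70.4 in DCVC, from which it was not shown to differ (adjusted p = 0.103), and at 848 ± 167 in LPS. TNFAIP8L3, a phosphoinositide transfer protein, ran from 1173 to 3225 in Control (median 2589) and from 11.9 to 15.9 in DCVC_LPS (median 13.9), and was lower than both LPS and DCVC by -3.68 ± 0.23 and -3.67 ± 0.23 (adjusted p = 7.78e-13 and 8.58e-13). MTUS1, a microtubule-associated tumour suppressor, ran from 1631 to 2794 in Control (median 2628) and from 14.5 to 36.5 in DCVC_LPS (median 28.2). It was also lower than in LPS, where it averaged 57.5 ± 10.7, by -1.08 ± 0.18 (limma adjusted p = 1.13e-05). S1PR1, a sphingosine-1-phosphate receptor, fell from 217 ± 121 to 1.17 ± 0.853, beside 382 ± 141 in LPS and 3.44 ± 3.65 in DCVC. The others were DLG3, a synaptic scaffold (from 557 ± 179 to 1.45 ± 1.75), the homeobox gene DLX3 (from 750 ± 369 to 3.31 ± 3.16), the adhesion protein KIRREL1 (from 648 ± 230 to 5.36 ± 3.43), the adrenergic receptor ADRA2B (from 396 ± 156 to 2.92 ± 1.65), the pseudogene SLC9A7P1 (from 180 ± 45.3 to 1.07 ± 0.83), whose reads may come from its parent gene, RGS4, which shortens G protein signalling (from 255 ± 79.4 to 1.84 ± 0.888), and FGD4, an exchange factor for CDC42 (from 707 ± 413 to 6.97 ± 4.55). None of the 12 overlapped between the groups, as the rule that chose them required.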

How the data were processed

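RNA was measured in 24 poly-A libraries of PMA-treated THP-1 cells. The deposited signal values are reads that the authors divided by 1 size factor per library: multiplied back, 100.0% of the values in each library fell on a whole read, with a tolerance of 0.1 read. Per the submitters' processing notes the tools were DESeq2 1.24.0, R 3.6.0, featureCounts 1.6.1, STAR, MultiQC 0.9 and FastQC 0.11.5, with the build hg38. The sources used here do not give the annotation, the strand setting or the treatment of reads with several hits, which could change genes with copies or overlaps. Of 58381 entries, 19595 (33.56%, holding 1.01% of the values) have no gene name and were left out, and 51 symbols on 2 entries were summed.

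The test covered 13900 genes averaging 10 or more, taken as log2(value + 1), a scale that understates the change of low genes. The test was limma 3.58.1, run with R 4.3.3 and a mean-variance trend. The fit used the 24 libraries with 1 mean for each of 4 groups, which share 1 estimate of the spread, and the contrasts were DCVC_LPS minus Control, minus LPS and minus DCVC. A gene is called higher or lower when its Benjamini-Hochberg adjusted p over all genes tested is under 0.05. The fit was also run on simulated counts drawn independently for each library. These held no letter pairs, so that run cannot bear on how the p-values treat the letters. The members and gene lists were chosen with earlier results of these data known, so no list was tested, and each is given by its counts and median beside those of all genes. Setting genes without reads in a group at their bound left the list medians as printed.

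Genes were named by a rule. The 12 genes with the largest rise and the 12 with the largest fall came from called genes that average 50 or more and have no overlap of the 6 and 6 values. Each list gave at most 2 rising and 2 falling members, those with the smallest adjusted p, and a fixed set of genes was always included. Gene positions came from GENCODE and promoters from RefSeq (GRCh38.p14), where 136 of 178 named genes were found. Alternatives were edgeR 4.0.16 and DESeq2 1.42.0 on the recovered reads, other pseudocounts and filters, equal totals, only the 12 libraries, a replicate block, pairs of letters fitted alone, and leaving out each library. An alternative that averages the letter pairs was added after seeing the data. Same-letter libraries of Control and DCVC_LPS deviated together (correlations 0.157 to 0.337 over genes, 6 of 6 above 0.1). The letters were taken as pairing the samples only in the replicate block, and the main fit and its p-values hold no letter term. Partner letters (A with B, C with D, E with F) correlated nearly as strongly, at 0.132 to 0.295, and 3 of 6 Control libraries and 5 of 6 DCVC_LPS libraries correlated best with their own letter, so the data do not separate single letters from sets of 2. This pairing comes from the data, since the labels do not say what the letters mark.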

Additional observations from a re-analysis of the deposited data

Results flagged for a closer look

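In 131 genes described above, 36 of 260 groups of 6 held a library far from the other 5, where chance gives about 1 in 20 for independent normal values. These values are counts of chosen genes, many of which moved together in 1 library, so that share is only a guide. DCVC_LPS replicate F was that library in 22 of the 26 such groups of DCVC_LPS, each time as the highest. Chemokines and cytokines among them were CCL4L2 at 72420, CCL4 at 36540, CCL3L3 at 106900, CCL3 at 63700, IL6 at 84.5, IL12B at 25.6 and CXCL10 at 635. Interferon, presentation and maturation genes were IDO1 at 391, GBP5 at 4642, GBP1 at 672, USP18 at 504, TAP1 at 10410, NLRC5 at 653, LAMP3 at 1509, CD80 at 926, CCR7 at 107 and VCAM1 at 7.68. The others were ACOD1 at 1020, TRAF1 at 41410, CASP5 at 780, ATF3 at 19180 and RASD2 at 5.97. All these values are normalized counts in library F, and its part in each mean is given above where it exceeded 1.5 times. Over all 13900 genes F was such a highest library in 342, and each of the other 5 in 34 to 87. Among untreated libraries, Control F was such a highest library in 231 genes and such a lowest one in 90.

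In the remaining DCVC_LPS groups, TNIP1 was low in E (20320), TXNRD1 was high in C (91300), and CBS (32.2) and IL10 (3.22) were high in B. Among untreated libraries, F was high for CD14 (4443) and MCM4 (2764) and low for IL1B (5906) and CDKN1A (14060). Untreated E was high for ADRA2B (689), DNAJB4 (192) and TRIB3 (687). Single reads set apart CSF2 in C (0.947) and IL6 (1.52) and IL12B (0.761) in D.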

How the results depend on the processing

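Under 26 alternatives, 12 of them leaving out 1 library, the counts of genes higher, lower, at least 2-fold changed and close to Control stayed within 1.5 times of the values given, except without a filter on low values, which tests more genes: 2621 genes were then at least 2-fold higher and 7457 close to their Control level. With 1 library left out, 5042 to 5153 genes were higher, 5038 to 5130 lower, 1591 to 1664 at least 2-fold higher, 2598 to 2645 at least 2-fold lower and 4094 to 4228 close to Control. Of 178 named genes 162 kept direction and call under every alternative. With the letter pairs averaged, a choice made after seeing the data, 6 named genes lost their call, among them VCAM1 (adjusted p = 0.125). List counts of 4 or more then fell by over 1.5 times for lower members of the unfolded protein response (5 to 3), heat shock (5 to 3), sterol (4 to 2) and ribosomal (11 to 2) lists, and for higher members of the MHC class II (5 to 3), LXR (4 to 2), respiratory chain (5 to 2) and mitochondrial (7 to 1) lists. VCAM1 reversed in letters E and F (1.38, adjusted p = 0.0445), and the cause was not tested. With the letters as a replicate block 5531 genes were higher and 5513 lower, 5168 and 5153 of them shared with the fit without it, and the pairing changed the call of no named gene, and moved by over 1.5 times only the mitochondrial and ribosomal list counts given above. Equal totals moved the median change of all genes by -0.05. No gene called in the main direction was called the other way, apart from 3 in letters E and F. Genes under 10 counts on average, 24835 of them, were beyond the depth tested.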

Other observations

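Of 5 tested granulocyte markers 4 were higher in DCVC_LPS, 0 were lower and 1 was not called, beside 37.2% higher and 37.1% lower over all genes. The higher ones included primary granule genes, which THP-1 cells share with granulocyte precursors. AZU1, azurocidin, had a mean of 4510 in Control and 9682 in DCVC_LPS, and ELANE, neutrophil elastase, 770 and 2040. The 8 granulocyte markers, 5 of them tested, summed to between 4562 and 7843 in Control and between 10630 and 16170 in DCVC_LPS. CEACAM8 and FCGR3B had no read in either group, and MPO, a primary granule gene too low to be tested, had 4 reads in Control and 12 in DCVC_LPS. DCVC_LPS was above LPS for AZU1 and ELANE (limma adjusted p = 3.1e-05 and 6.5e-06) and was not shown to differ from DCVC (adjusted p = 0.33 and 0.62).

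Of 3 tested T and NK cell markers 1 was higher and 2 lower. NKG7 rose by 1.21 on the log2 scale, and GNLY changed by -1.24. TRAC, the T cell receptor alpha constant region, had a mean of 2288 in Control and 241 in DCVC_LPS. The TRAC mean was 199 in LPS and 1585 in DCVC. Among markers with too few counts to be tested, CD2 had no read in either group. In Control and DCVC_LPS, LCK had 1 and 0 reads, CD3E 0 and 2, CD3D 8 and 1, and CD3G 17 and 0. ZAP70 had 15 and 5, CD8A 19 and 24, CD5 7 and 24, and KLRD1 4 and 12. Of 6 tested dendritic cell markers 1 was higher and 4 lower, with a median log2 change of -1.53. The higher one, XCR1, a chemokine receptor, was at 1.25 in Control and 0.469 in LPS and at 23.5 in DCVC_LPS and 41.7 in DCVC. CD1C, a lipid-presenting molecule, had means of 82.5 in Control and 13.8 in DCVC_LPS, and FLT3, a growth factor receptor, 870 and 147. Of 5 tested endothelial markers 2 were higher and 2 lower. The summed level of all 8 endothelial markers, with the untested ones, ran from 4889 to 7955 in Control and from 1319 to 1807 in DCVC_LPS. PECAM1, an adhesion molecule, had means of 5637 and 861, and TEK, the angiopoietin receptor, 32.0 and 2.60. VWF, von Willebrand factor, was at 196 in Control, 116 in LPS, 397 in DCVC_LPS and 531 in DCVC.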
